A study of Homo sapiens with 12 samples.

Results

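The 10 genes described here encode ligands and receptors of the vascular endothelial growth factor (VEGF) and angiopoietin families: VEGFA, VEGFB, VEGFC, PGF, ANGPT1 and ANGPTL4 among the ligands, and KDR, FLT1, NRP1 and NRP2 among the receptors and co-receptors. They were chosen by name, and all 10 had an ID among the 48162 gene IDs of the count files. The data are RNA sequencing counts of 12 libraries made from IMR90 cells, which are fibroblasts from normal human lung, with 3 libraries in each of 4 groups. RAS cells carried the oncogene HRAS G12V in a pBABE retroviral vector and per the labels are senescent, that is, they have left the cell cycle for good. RAS/shDOT1L cells carried the same oncogene and a pLKO.1 hairpin RNA against DOT1L, a methyltransferase that acts on lysine 79 of histone H3. DOT1L OE cells overexpressed human DOT1L from the vector MSCB-hDot1lwt and are not senescent per the labels. Control cells carried pBABE without an insert. Every culture was kept at 2% oxygen. Per the labels drug selection lasted 4 days, with puromycin (3 µg/mL) in RAS, RAS/shDOT1L and control and blasticidin (1 µg/mL) in DOT1L OE, although the study's methods give another puromycin dose and time for the pBABE vectors. DOT1L OE and control thus also differed in vector and drug, which cannot be told apart from DOT1L itself. The labels name no control hairpin for RAS, and 1 hairpin was used against DOT1L.

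VEGF ligands are secreted dimers that bind receptor tyrosine kinases on the cells lining blood and lymph vessels, where they drive growth, migration and permeability. KDR (VEGF receptor 2) carries most of the growth signal of VEGFA, FLT1 (VEGF receptor 1) binds VEGFA, VEGFB and PGF and can act as a decoy, and the neuropilins NRP1 and NRP2 are co-receptors that also bind class 3 semaphorins. Angiopoietins act on the receptor TEK and hold vessels stable or loosen them. Fibroblasts are known mainly as a source of these ligands, and VEGF is among the factors that senescent fibroblasts secrete, a mixture called the senescence-associated secretory phenotype (SASP). The comparisons asked how these genes stood when the oncogene was expressed, when DOT1L was knocked down in such cells, and when DOT1L was raised without the oncogene.

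The sources name the 3 libraries of a group both as technical and as biological replicates, so the p-values rest on a spread among libraries that may be only technical. Library totals lay between 16128055 and 19503457 counts. HRAS was at 492 to 512 CPM (read counts at a common library size, after TMM scaling) in RAS, 262 to 287 in RAS/shDOT1L, 73.2 to 83.4 in DOT1L OE and 83.0 to 88.6 in control. DOT1L was at 82.3 to 88.5 CPM in RAS, 10.2 to 11.4 in RAS/shDOT1L, 192 to 208 in DOT1L OE and 29.1 to 33.6 in control, so every library matched its label. HRAS was also lower in RAS/shDOT1L than in RAS (-0.85 on the log2 scale, SE 0.05, edgeR adjusted p = 3.9e-16), and its part in that comparison was not tested. All 12 fibroblast markers were at 1 CPM or more, with a summed level of 16912 to 19247 CPM in RAS, RAS/shDOT1L and DOT1L OE and 22317 to 22607 in control. Mitochondrial genes took 3.64% to 3.87% of the counts in RAS and 2.12% to 2.54% in the other groups.

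Log2 changes moved with the GC content of the transcript across all genes. In RAS against control the median log2 change was -0.63 for genes with GC content under 38.4% and 0.59 for genes over 61.9%, whereas for RAS/shDOT1L against RAS these medians were 0.42 and -0.44. For DOT1L OE against control they were -0.22 and 0.12. The members span this range, with 63.3% GC in ANGPTL4, 63.0% in PGF, 62.2% in VEGFB, 54.4% in VEGFC, 51.3% in VEGFA, 50.5% in NRP2, 47.0% in KDR, 45.3% in FLT1, 44.3% in NRP1 and 35.7% in ANGPT1. Changes were therefore also computed with an offset for GC content (the GC offset). For the members its value is given wherever it ended a call, turned a direction or moved a fold by over 1.5 times. Values of all other genes and lists are given without it, so whether their calls hold with it is not stated.

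In RAS against control, 9 of the 10 members passed the test at an edgeR adjusted p under 0.05. VEGFA, VEGFB, VEGFC, PGF, ANGPTL4, KDR, NRP1 and NRP2 were higher in RAS, ANGPT1 was lower, and FLT1 did not pass. Of all 13554 genes tested 64.0% were called, 31.9% higher and 32.0% lower. The median log2 change was 0.92 over the 10 members and -0.04 over all genes tested. VEGFA, VEGFC, PGF and ANGPTL4 passed the test for a change of over 1.5-fold, 4 of 10 members, against 26.9% of all genes. With the GC offset VEGFB (log2 change -0.09, edgeR adjusted p = 0.16) and ANGPT1 (-0.10, adjusted p = 0.55) left the calls. Among all genes 3702 were higher and 3518 lower with the offset, against 4327 and 4343 without it. In comparisons with control, PGF and KDR met the filter on low counts only through the other group, as KDR did through DOT1L OE in RAS/shDOT1L against DOT1L OE. They had to differ there. In RAS/shDOT1L against RAS, KDR met the filter only through RAS, which favours a lower value in RAS/shDOT1L. The counts and medians over members are descriptions. Libraries of the 2 groups compared did not overlap for 67.8% of all genes tested in RAS against control and 58.7% in RAS/shDOT1L against RAS. The share was 64.1% in DOT1L OE against control and 61.8% in RAS/shDOT1L against control. Against DOT1L OE it was 69.8% for RAS and 69.1% for RAS/shDOT1L. A lack of overlap, as described below for single members, was thus common among all genes.

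With DOT1L knocked down, RAS/shDOT1L cells had 7 of 10 members lower than RAS cells and none higher. These were VEGFA, VEGFB, VEGFC, PGF, ANGPT1, ANGPTL4 and NRP2, whereas KDR, FLT1 and NRP1 did not pass. Of all 13398 genes tested 52.7% were called, 26.4% lower and 26.3% higher. The median log2 change was -0.66 over the members and 0.03 over all genes. Only VEGFB and VEGFC passed the test for over 1.5-fold, 2 of 10, against 17.0% of all genes, and with the GC offset VEGFB no longer passed it. Among members called at an edgeR adjusted p under 0.05, PGF left with the GC offset (adjusted p = 0.25) and NRP1 joined (0.00093). Of all genes 3061 were higher and 3188 lower with the offset, against 3524 and 3534 without it.

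DOT1L OE cells split the members evenly against control: VEGFC, PGF, KDR and NRP2 were higher, VEGFB, ANGPT1, ANGPTL4 and NRP1 were lower, and VEGFA and FLT1 did not pass. Of all 13660 genes tested 59.9% were called, 29.9% higher and 29.9% lower. The median log2 change was -0.25 over the members and 0.01 over all genes. VEGFB, PGF, ANGPT1, ANGPTL4, KDR and NRP2 passed the test for over 1.5-fold, 6 of 10, against 20.8% of all genes. This comparison and RAS against control share the control libraries.

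Set against control, RAS/shDOT1L cells had 5 members higher (VEGFA, VEGFC, PGF, ANGPTL4 and NRP2) and 2 lower (VEGFB and ANGPT1) of 9 tested, with FLT1 and NRP1 not past the test and KDR below the filter on low counts. Of all 13519 genes tested 55.5% were called, 27.9% higher and 27.6% lower. The median log2 change was 0.28 over the 9 members and -0.01 over all genes. PGF, ANGPT1 and ANGPTL4 passed for over 1.5-fold, 3 members, against 19.1% of all genes. These libraries came from bulk cultures, so a change in the number of cells of a kind and a change in RNA per cell cannot be told apart.

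**Figure D1:**
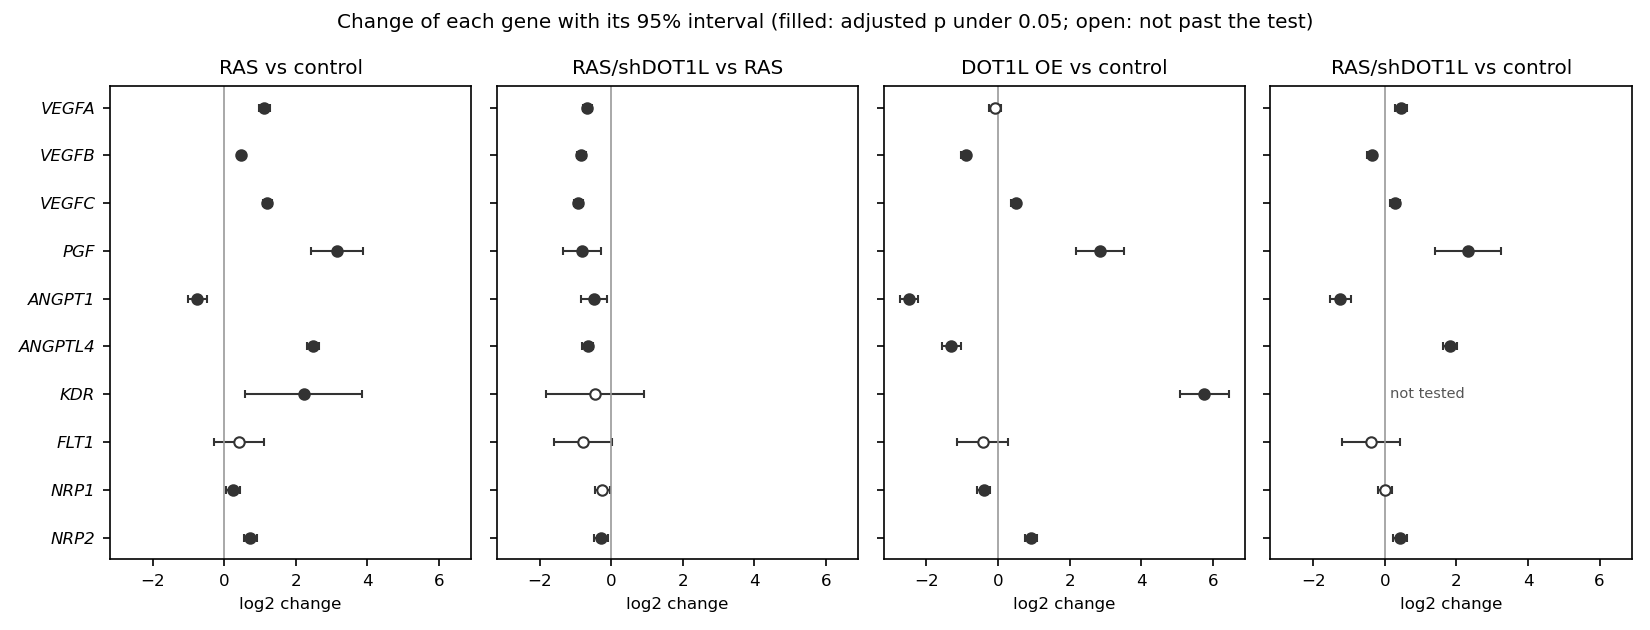
Log2 change of each member (horizontal axis) with its 95% interval in 4 comparisons. Filled points passed the edgeR test at an adjusted p under 0.05. All members lie left of 0 in RAS/shDOT1L against RAS, KDR stands at 5.76 in DOT1L OE against control, and KDR was not tested in RAS/shDOT1L against control.

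VEGFA (ENSG00000112715; GRCh38 chromosome 6, 43770184 to 43786487, plus strand) encodes the main growth factor of vessel sprouting. It stood at 157, 161 and 160.4 CPM in the RAS libraries, 97.0, 96.0 and 104 in RAS/shDOT1L, 72.1, 70.5 and 63.5 in DOT1L OE, and 61.8, 74.3 and 83.6 in control. The 3 RAS libraries lay closest together and above all others, RAS/shDOT1L lay between, and DOT1L OE overlapped control. RAS cells had 2.17 times as much VEGFA as control (1.12 on the log2 scale, SE 0.07, edgeR adjusted p = 5.8e-15). RAS/shDOT1L cells had less VEGFA than RAS cells (-0.67 on the log2 scale, SE 0.06, edgeR adjusted p = 1.2e-10) and more than control (0.44, SE 0.08, adjusted p = 5.6e-05). For DOT1L OE against control the log2 change of -0.09 had a 95% interval of -0.25 to 0.07 (edgeR adjusted p = 0.36), but without control library 1 it was -0.21 (adjusted p = 0.024) and without control library 3 it was 0.01. Exons of VEGFA overlap an opposite-strand gene, ENSG00000272114, and the strand setting of the counting is not given in the sources used here, so reads from it cannot be told apart.

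VEGFB (ENSG00000173511; chromosome 11, 64234584 to 64239264, plus strand) encodes a ligand of FLT1 with little effect on sprouting. Its levels were 188, 191 and 199 CPM in RAS, 104, 111 and 105 in RAS/shDOT1L, 71.4, 77.2 and 72.0 in DOT1L OE, and 131, 147 and 137 in control. No 2 groups overlapped, and both RAS/shDOT1L and DOT1L OE lay below control. VEGFB was higher in RAS than in control (0.48 on the log2 scale, SE 0.05, edgeR adjusted p = 2.2e-09), yet the GC offset brought it to -0.09 (adjusted p = 0.16), so its direction in RAS against control depends on that setting. VEGFB was also called lower both without and with the offset in RAS/shDOT1L against RAS (log2 change -0.83, edgeR adjusted p = 2.0e-13, and -0.44, adjusted p = 2.5e-07) and in DOT1L OE against control (-0.91, adjusted p = 2.0e-14, and -1.01, adjusted p = 4.0e-16). The test for over 1.5-fold in RAS/shDOT1L against RAS gave an edgeR adjusted p of 0.00030 for VEGFB without the offset and 1 with it. RAS/shDOT1L cells also had less VEGFB than control (-0.37 on the log2 scale, SE 0.06, edgeR adjusted p = 1.4e-05).

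VEGFC (ENSG00000150630; chromosome 4, 176683538 to 176792922, minus strand) encodes the main growth factor of lymph vessels. The RAS libraries had 161, 159.6 and 156 CPM, RAS/shDOT1L had 83.1, 80.2 and 86.5, DOT1L OE had 98.4, 97.6 and 95.2, and control had 64.2, 70.6 and 71.9. The 4 groups did not overlap, in the order RAS, DOT1L OE, RAS/shDOT1L and control, and all neighbours in that order passed the test. RAS cells had 2.30 times as much VEGFC as control (1.20 on the log2 scale, SE 0.06, edgeR adjusted p = 9.0e-18). In RAS/shDOT1L against RAS it was lower (-0.91 on the log2 scale, SE 0.07, edgeR adjusted p = 1.0e-13), and DOT1L OE exceeded control (0.50, SE 0.06, adjusted p = 5.1e-08). Among VEGFA, VEGFB and VEGFC, only VEGFC was called higher than control in both RAS and DOT1L OE. RAS/shDOT1L stayed 1.21-fold above control (edgeR adjusted p = 0.0021), which did not hold when libraries were scaled by total count alone (adjusted p = 0.065).

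PGF (ENSG00000119630; chromosome 14, 74941834 to 74955626, minus strand), placental growth factor, binds FLT1. It was a low transcript, at 7.75, 7.15 and 6.13 CPM in RAS, 3.52, 4.52 and 3.72 in RAS/shDOT1L, 4.96, 5.14 and 6.88 in DOT1L OE, and 1.08, 0.971 and 0.302 in control. Every library of the other 3 groups lay above every control library, whose counts were 21, 18 and 6. RAS cells had 8.90 times as much PGF as control (3.15 on the log2 scale, SE 0.37, edgeR adjusted p = 7.2e-09) and DOT1L OE had 7.23 times the control level (log2 change 2.85, SE 0.34, adjusted p = 1.5e-08). In tests against control PGF met the filter on low counts only through the other group, so it had to differ there. RAS/shDOT1L lay below RAS (-0.82 on the log2 scale, SE 0.27, edgeR adjusted p = 0.011), yet it was -0.39 after the GC offset (adjusted p = 0.25). RAS against DOT1L OE did not pass (log2 change 0.30, 95% interval -0.11 to 0.71, edgeR adjusted p = 0.22), and with the GC offset its direction turned (-0.21).

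ANGPT1 (ENSG00000154188; chromosome 8, 107249482 to 107498055, minus strand) encodes the angiopoietin that activates TEK and keeps vessels quiet. It stood at 20.2, 14.2 and 17.3 CPM in RAS, 9.33, 11.9 and 15.3 in RAS/shDOT1L, 5.66, 4.91 and 5.01 in DOT1L OE, and 29.6, 26.6 and 30.8 in control. It was the member lowest in GC content and the only one with its highest mean CPM in control. The DOT1L OE libraries lay under all others and did not overlap them, and RAS and RAS/shDOT1L overlapped. ANGPT1 was 5.58-fold lower in DOT1L OE than in control (-2.48 on the log2 scale, SE 0.13, edgeR adjusted p = 5.9e-17), and -2.23 with the GC offset. In RAS against control the log2 change was -0.75 (SE 0.13, edgeR adjusted p = 8.3e-06) and -0.10 with the GC offset (adjusted p = 0.55). In RAS/shDOT1L against RAS it was -0.48 (SE 0.18, edgeR adjusted p = 0.026), and -0.89 with the GC offset (adjusted p = 9.4e-05). It did not pass in the DESeq2 Wald test (adjusted p = 0.061), when libraries were scaled by total count alone (0.060), and without RAS library 1 (0.17), RAS library 3 (0.054), RAS/shDOT1L library 1 (0.16) or RAS/shDOT1L library 2 (0.067).

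ANGPTL4 (ENSG00000167772; chromosome 19, 8363289 to 8374370, plus strand) encodes an angiopoietin-like protein that inhibits lipoprotein lipase and is induced by low oxygen and by PPAR receptors. It was at 125, 142 and 124 CPM in RAS, 79.2, 85.7 and 79.9 in RAS/shDOT1L, 8.38, 10.8 and 9.08 in DOT1L OE, and 19.5, 23.5 and 27.1 in control. The groups did not overlap, and both groups with the oncogene lay far above both groups without it. RAS cells had 5.59 times as much ANGPTL4 as control (2.48 on the log2 scale, SE 0.09, edgeR adjusted p = 5.6e-22), or 1.90 on the log2 scale with the GC offset. In DOT1L OE it was 2.47-fold lower than in control (-1.30 on the log2 scale, SE 0.14, edgeR adjusted p = 8.7e-10). Knockdown left it lower than in RAS (-0.66 on the log2 scale, SE 0.07, edgeR adjusted p = 1.9e-09, and -0.23 with the GC offset, adjusted p = 0.0095) and 3.51-fold higher than in control (adjusted p = 5.4e-15). RAS and DOT1L OE thus stood on opposite sides of control for this gene, 13.8-fold apart (edgeR adjusted p = 3.8e-17).

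KDR (ENSG00000128052; chromosome 4, 55078481 to 55125595, minus strand), the main signalling receptor for VEGFA, was near the limit of counting outside DOT1L OE. It stood at 10.8, 12.9 and 11.1 CPM in DOT1L OE, from 202, 276 and 237 counts, against 0.310, 0.324 and 0 CPM in control, from 6, 6 and 0 counts. RAS had 1.19, 0.970 and 0.830 CPM and RAS/shDOT1L had 0.979, 0.377 and 0.821. The lowest DOT1L OE library, at 10.8 CPM, lay above the highest library of any other group, at 1.19. The change in DOT1L OE against control was 54.3-fold (5.76 on the log2 scale, SE 0.35, edgeR adjusted p = 1.5e-15), and on the log2 scale 5.17 without control library 3, up to 6.18 without control library 2, and 6.37 by limma-voom. In tests against control KDR met the filter on low counts only through the other group, so it had to differ there. KDR was 11.6-fold lower in RAS than in DOT1L OE (edgeR adjusted p = 1.4e-10) and 16.0-fold lower in RAS/shDOT1L than in DOT1L OE (adjusted p = 2.1e-10), where it met the filter only through DOT1L OE. In RAS against control the log2 change of 2.22 (SE 0.84, edgeR adjusted p = 0.021) rested on 49 counts in RAS and 12 in control, and the call ended without RAS library 1 (adjusted p = 0.065), RAS library 2 (0.0503), control library 3 (0.12), or the filter on low counts (0.061). By limma-voom that log2 change was 2.86. In RAS/shDOT1L against RAS, whose libraries overlapped, it was -0.44 with a 95% interval of -1.81 to 0.93 (edgeR adjusted p = 0.63). There KDR met the filter only through RAS.

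Markers of endothelial cells, the cells in which KDR is mainly known, were measured beside it. Of 14 such markers with an ID, 7 reached 1 CPM in a RAS library and 7 in a RAS/shDOT1L library (VWF, TIE1, TEK, CLDN5, ESAM, ROBO4 and EGFL7), 5 in a DOT1L OE library (TIE1, TEK, ESAM, ROBO4 and EGFL7) and 4 in a control library (TEK, ESAM, ROBO4 and EGFL7). Of those tested, 5 were higher and none lower of 6 in RAS against control (median log2 change 3.55), none higher and 3 lower of 7 in RAS/shDOT1L against RAS (median -0.45), 3 higher and 1 lower of 5 in DOT1L OE against control (median 0.95), and 6 higher and 1 lower of 7 in RAS/shDOT1L against control (median 2.67). Where tested against control, at least TIE1 and CLDN5 (1, 9 and 3 counts of CLDN5 in control) met the filter on low counts only through the other group. They had to differ there, and the counts and medians over these markers are descriptions. The summed level of the 14 markers was 138 to 146 CPM in RAS, 78.7 to 89.99 in RAS/shDOT1L, 150.1 to 160.3 in DOT1L OE and 76.7 to 81.7 in control. TEK made up most of that sum in DOT1L OE and control, and the other 13 markers summed to 75.8 to 86.9 CPM in RAS, 56.6 to 65.7 in RAS/shDOT1L, 23.6 to 27.4 in DOT1L OE and 10.4 to 13.4 in control. CDH5, the cadherin that defines endothelial junctions, had 0 counts in RAS, DOT1L OE and control and 5 over the RAS/shDOT1L libraries, and EMCN had 0 in the same 3 groups and 6 in RAS/shDOT1L, so neither was detected where KDR was highest. ESAM, an adhesion molecule, was at 14.0 ± 1.51 CPM in RAS, 13.3 ± 2.37 in DOT1L OE and 1.59 ± 0.819 in control (SD, n = 3 each). ROBO4, a guidance receptor, was at 32.2 ± 3.47 CPM in RAS and 24.9 ± 2.73 in RAS/shDOT1L, and 2.74 ± 0.795 in DOT1L OE and 1.64 ± 0.432 in control. Blood markers summed to at most 5.48 CPM in any library. Epithelial markers summed to 117 to 122 CPM in control, of which KRT19 took 115 ± 1.62, and to 14.7 to 63.1 in the other groups. Markers of pericytes and smooth muscle summed to 918 to 944 CPM in RAS, 1249 to 1324 in RAS/shDOT1L, 1031 to 1045 in DOT1L OE and 1476 to 1589 in control. The part of the other endothelial markers and of these lists in the results was not tested.

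Promoter sequence is shown for 3 genes on which the results turn: VEGFC and ANGPTL4, higher in RAS and lower with the knockdown, and KDR, higher in DOT1L OE. RefSeq windows from 250 bases before to 50 bases after the start (GRCh38.p14) were at hand for 7 of the 10 members, and the 250 bases before the start are printed, with matches in capitals to the hypoxia response core (ACGTG or GCGTG), the AP-1 site TGANTCA, the NF-kB site, the PPAR direct repeat and the CEBP site, on either strand.
VEGFC promoter, chr4:176792923-176793172, minus strand: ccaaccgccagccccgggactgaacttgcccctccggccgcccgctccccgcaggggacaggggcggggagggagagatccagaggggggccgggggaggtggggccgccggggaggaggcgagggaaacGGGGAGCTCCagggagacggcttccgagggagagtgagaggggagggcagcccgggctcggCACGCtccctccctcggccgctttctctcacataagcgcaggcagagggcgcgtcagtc
ANGPTL4 promoter, chr19:8363905-8364154, plus strand: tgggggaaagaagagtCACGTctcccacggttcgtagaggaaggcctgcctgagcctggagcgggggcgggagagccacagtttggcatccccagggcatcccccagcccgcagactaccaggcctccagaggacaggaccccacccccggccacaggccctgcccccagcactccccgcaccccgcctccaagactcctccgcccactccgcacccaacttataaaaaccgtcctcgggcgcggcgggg
KDR promoter, chr4:55125596-55125845, minus strand: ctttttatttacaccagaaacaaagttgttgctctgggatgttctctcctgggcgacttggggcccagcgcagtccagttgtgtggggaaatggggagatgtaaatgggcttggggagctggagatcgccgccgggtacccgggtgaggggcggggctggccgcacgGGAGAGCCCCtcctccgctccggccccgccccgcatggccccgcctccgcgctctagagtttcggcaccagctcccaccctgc
In VEGFC the capitals mark an NF-kB match 120 to 111 bases before the start and, on the other strand, a GCGTG match 59 to 55 bases before it. In ANGPTL4 they mark an ACGTG match 234 to 230 bases before the start, and in KDR an NF-kB match 83 to 74 bases before it, both on the other strand. The start used for ANGPTL4 lies inside the gene span given above. Over all 35116 windows of the table, 21.4% held ACGTG, 36.5% GCGTG and 11.3% an NF-kB match, so the hypoxia response core is common. Of the 7 members with a window, 1 held ACGTG, 4 GCGTG and 3 an NF-kB match. AP-1, CEBP and PPAR matches, in 7.71%, 10.5% and 0.023% of all windows, were found in none of the members' windows. The GC box GGGCGG was in the windows of 7 of 7 members (8 windows) and in 45.0% of all windows. GC content was 65.0% (KDR) to 84.7% (VEGFB) in the members' windows, against a median of 58.7% over all windows. The part of GC content in the GC box and other matches was not tested. A match is a description of the letters only.

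FLT1 (ENSG00000102755; chromosome 13, 28300346 to 28495145, minus strand) encodes VEGF receptor 1. It was low and did not pass the test in any of 6 comparisons. Its levels were 2.27, 3.82 and 4.22 CPM in RAS, 2.02, 2.01 and 1.83 in RAS/shDOT1L, 1.92, 1.03 and 2.76 in DOT1L OE, and 1.96, 3.24 and 2.51 in control, from 22 to 66 counts a library. The groups overlapped except RAS and RAS/shDOT1L. The 95% interval of the log2 change was -0.29 to 1.12 in RAS against control, -1.60 to 0.02 in RAS/shDOT1L against RAS, and -1.14 to 0.29 in DOT1L OE against control, so changes of over 1.5-fold lay within the intervals. RAS against DOT1L OE (log2 change 0.84, edgeR adjusted p = 0.062) passed without RAS library 1 (adjusted p = 0.017), without DOT1L OE library 3 (0.025), with the GC offset (0.022), with no filter on low counts (0.043) and in limma-voom (0.042).

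NRP1 (ENSG00000099250; chromosome 10, 33177492 to 33336262, minus strand) encodes neuropilin 1, which presents VEGFA to KDR and is a receptor for SEMA3A. It was at 41.4, 47.8 and 36.5 CPM in RAS, 33.7, 33.9 and 37.3 in RAS/shDOT1L, 27.7, 25.5 and 26.7 in DOT1L OE, and 34.9, 34.1 and 36.8 in control. Only DOT1L OE stood apart, below every library of the other groups. NRP1 was 1.32-fold lower in DOT1L OE than in control (-0.40 on the log2 scale, SE 0.09, edgeR adjusted p = 0.00038). The rise in RAS against control was small (0.25 on the log2 scale, SE 0.10, edgeR adjusted p = 0.034) and ended when libraries were scaled by total count alone (0.05, adjusted p = 0.68) and without RAS library 2 (adjusted p = 0.26) or control library 1, 2 or 3 (0.091, 0.093 and 0.051). With the GC offset that log2 change was 0.53 (edgeR adjusted p = 4.2e-05). RAS/shDOT1L against RAS did not pass (log2 change -0.24, edgeR adjusted p = 0.066), but did with the GC offset (-0.45, adjusted p = 0.00093), as it did without RAS library 3 (adjusted p = 0.020).

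NRP2 (ENSG00000118257; chromosome 2, 205681990 to 205798133, plus strand) encodes neuropilin 2, a co-receptor for VEGFC and a receptor for SEMA3F. It had 53.7, 47.8 and 48.2 CPM in RAS, 40.3, 39.7 and 40.8 in RAS/shDOT1L, 58.7, 53.7 and 57.5 in DOT1L OE, and 27.9, 29.5 and 32.8 in control. All 3 altered groups lay above control without overlap. DOT1L OE had 1.89 times the NRP2 level of control (0.92 on the log2 scale, SE 0.08, edgeR adjusted p = 4.5e-11) and RAS had 1.66 times that level (0.73, SE 0.10, adjusted p = 7.6e-08). RAS/shDOT1L lay below RAS (-0.29 on the log2 scale, SE 0.10, edgeR adjusted p = 0.012), which did not hold when libraries were scaled by total count alone (adjusted p = 0.056) and without RAS library 1 (0.070). The neuropilins thus went opposite ways in DOT1L OE against control, NRP2 higher and NRP1 lower. Opposite-strand genes overlap exons of both, but their IDs had only 6 counts (at NRP1) and 7 counts (at NRP2) over the 12 libraries.

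**Figure D2:**
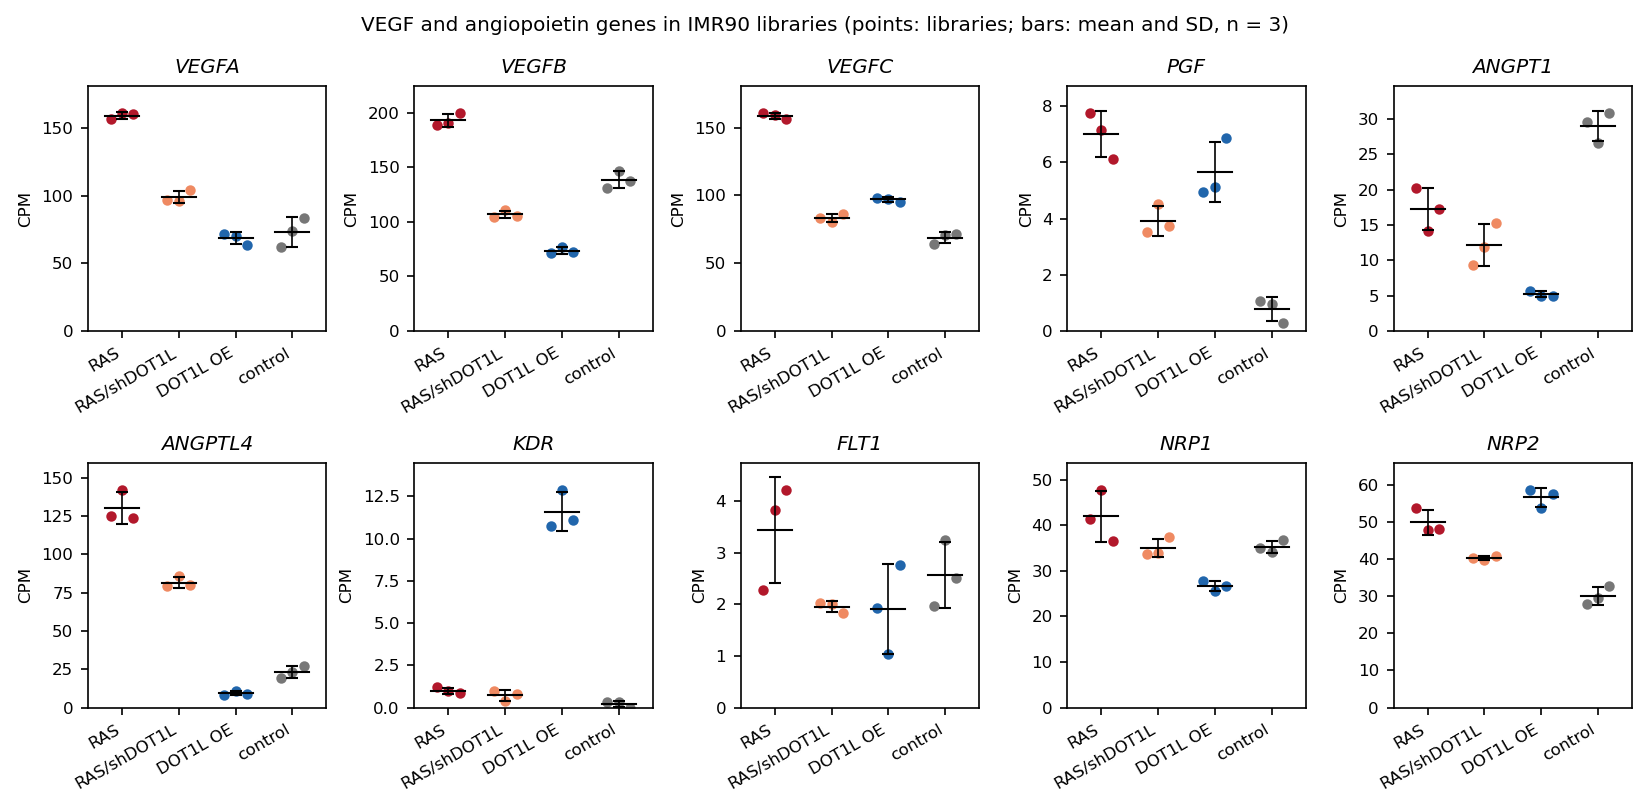
CPM of the 10 members (vertical axes, each from 0) in the 3 libraries of RAS, RAS/shDOT1L, DOT1L OE and control, with the mean and SD of each group. VEGFA, VEGFC and ANGPTL4 are highest in RAS, KDR is at 10.8 to 12.9 CPM in DOT1L OE and at most 1.19 elsewhere, and ANGPT1 is highest in control.

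The order of the groups differed from member to member. VEGFA and ANGPTL4 followed the order RAS, RAS/shDOT1L, control and DOT1L OE, in which control and DOT1L OE did not differ beyond their spread for VEGFA but did for ANGPTL4. VEGFB ran RAS, control, RAS/shDOT1L and DOT1L OE, with all neighbours past the test, but the place of RAS above control turned with the GC offset (-0.09). For PGF the groups RAS, DOT1L OE and RAS/shDOT1L had means of 7.01, 5.66 and 3.92 CPM, and control was lower than all of them. RAS overlapped DOT1L OE and did not pass against it (edgeR adjusted p = 0.22). RAS/shDOT1L did not overlap DOT1L OE and narrowly missed the threshold (edgeR adjusted p = 0.064), with a 95% interval of the log2 change of -1.03 to -0.05. RAS/shDOT1L against DOT1L OE passed for PGF when libraries were scaled by total count alone (adjusted p = 0.015), after the GC offset (0.036) and without RAS/shDOT1L library 2 (0.043). NRP2 ran DOT1L OE, RAS, RAS/shDOT1L and control, where DOT1L OE and RAS differed narrowly (log2 change of RAS over DOT1L OE -0.19, edgeR adjusted p = 0.043), which did not hold without RAS library 2 (adjusted p = 0.14), RAS library 3 (0.13), DOT1L OE library 1 (0.11) or DOT1L OE library 3 (0.11) and in the DESeq2 Wald test (0.11). NRP1 was lowest in DOT1L OE, though when libraries were scaled by total count alone RAS/shDOT1L against DOT1L OE did not pass for it (adjusted p = 0.093). Its RAS/shDOT1L and control means of 35.0 and 35.3 CPM differed by less than their spread (edgeR adjusted p = 0.96). In RAS against DOT1L OE 8 of 10 members passed, 6 higher and 2 lower, and 6 passed for over 1.5-fold, among them VEGFC, which did not with the GC offset, when NRP1 did. Of all genes tested 65.6% passed, 32.3% higher and 33.2% lower, and 30.3% for over 1.5-fold. In RAS/shDOT1L against DOT1L OE 8 of 10 passed, 5 higher and 3 lower, and 3 for over 1.5-fold. Of all genes tested 64.6% passed, 32.2% higher and 32.4% lower, and 31.1% for over 1.5-fold.

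Levels of different genes were compared per length, as TPM, which divides counts by the length of all exons of a gene and brings every library to the same sum. Within the 6 ligands, VEGFB, VEGFC and ANGPTL4 made up most of the summed TPM in RAS, with mean shares of 43.3% ± 1.40, 26.9% ± 0.618 and 23.3% ± 1.51 (SD, n = 3). RAS/shDOT1L libraries had 42.3% ± 0.777 for VEGFB, 24.8% ± 1.18 for VEGFC and 25.7% ± 0.744 for ANGPTL4. DOT1L OE had VEGFB and VEGFC at like shares of 44.0% ± 0.828 and 43.8% ± 1.05 and ANGPTL4 at 4.49% ± 0.483. In control the shares were 60.9% ± 1.77 for VEGFB, 22.9% ± 0.373 for VEGFC and 8.15% ± 0.995 for ANGPTL4. PGF and ANGPT1 took at most 3.54% each on average, which ANGPT1 reached in control. The shares depend on the length used. That of PGF in DOT1L OE was 1.15% over all exons and 2.91% over the canonical transcript, and that of ANGPT1 in control was 5.05% over the longest transcript. VEGFA was at 4.89% in RAS and 4.39% in control over 14431 exonic bases, which include a long retained-intron transcript, and 14.8% in RAS and 13.7% in control over the 3609 bases of its canonical transcript. The order of groups also depends on the unit. PGF had its highest mean in DOT1L OE by TPM (4.29 ± 0.746, RAS 3.79 ± 0.483) and in RAS by CPM. By TPM VEGFC was at 107.9 ± 6.09 in RAS/shDOT1L and 107.4 ± 5.84 in control. VEGFA in RAS/shDOT1L and VEGFB in RAS also overlapped control by TPM.

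Among the 4 receptors, the neuropilins held nearly all of the summed TPM except in DOT1L OE. KDR took 21.9% ± 2.58 of receptor TPM in DOT1L OE (12.9% over canonical transcript lengths) and 0.626% ± 0.542 in control. NRP1 and NRP2 were at 47.4% ± 3.69 and 47.0% ± 3.67 in RAS and at 56.0% ± 1.52 and 39.6% ± 1.36 in control. In TPM, KDR was at 8.06 ± 0.776 in DOT1L OE, beside NRP1 at 10.2 ± 0.530 and NRP2 at 18.0 ± 0.952 in the same libraries. NRP1 was at 12.5 ± 0.398 TPM in control and 11.4 ± 1.63 in RAS, so its mean was highest in control by TPM and in RAS by CPM. By TPM the NRP1 libraries of DOT1L OE overlapped those of RAS and of RAS/shDOT1L (10.3 ± 0.848), which they did not by CPM. FLT1 took 1.80% to 3.74% of receptor TPM on average in the 4 groups.

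**Figure D3:**
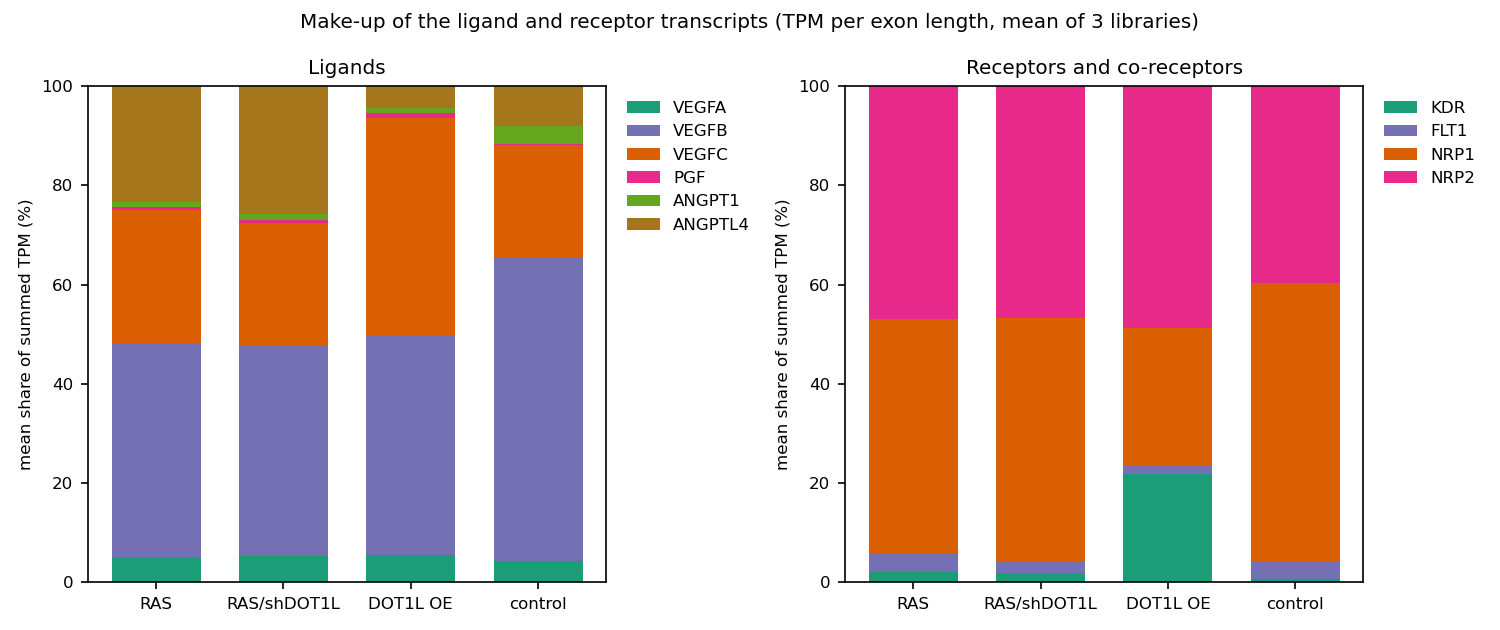
Mean share (percent, vertical axis) of each gene in the summed TPM of the 6 ligands (left) and the 4 receptors and co-receptors (right) in RAS, RAS/shDOT1L, DOT1L OE and control. ANGPTL4 takes 23.3% of ligand TPM in RAS and 8.15% in control, and KDR takes 21.9% of receptor TPM in DOT1L OE and 0.626% in control.

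**Figure D4:**
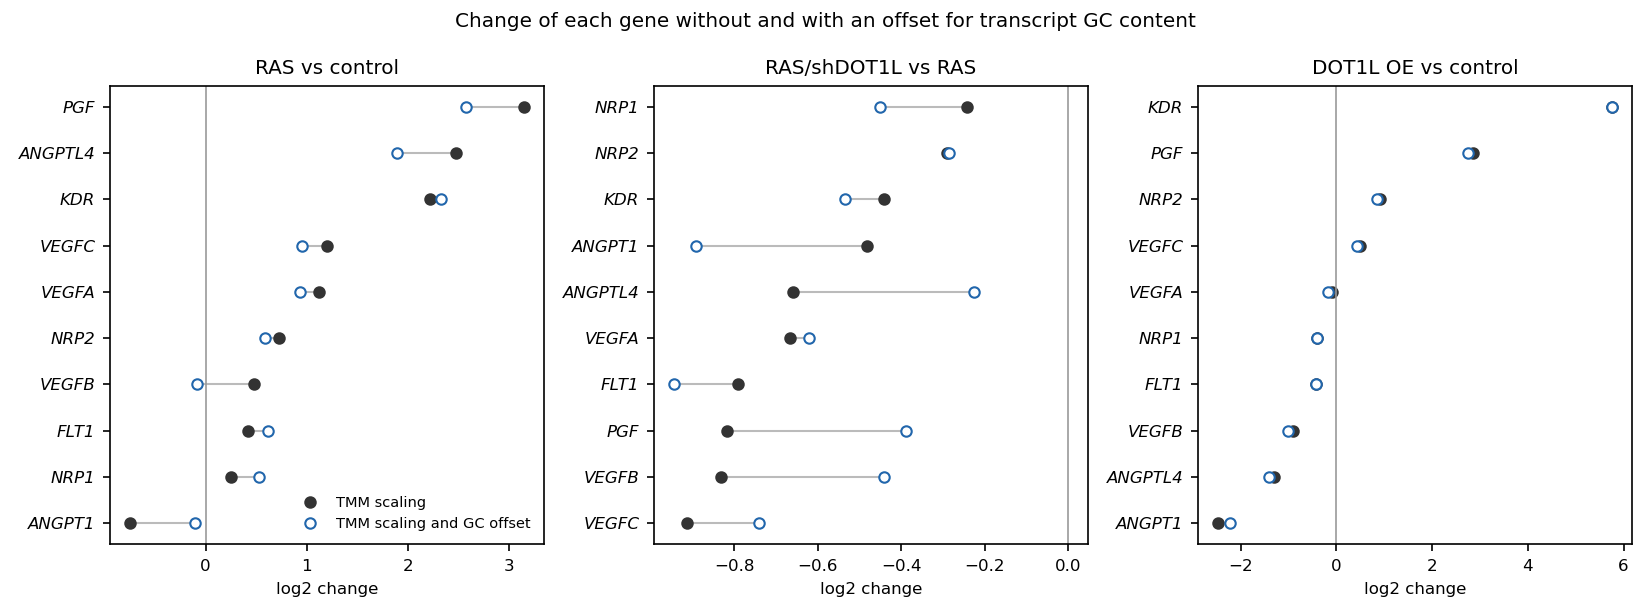
Log2 change of each member without (filled) and with (open) the GC offset in RAS against control, RAS/shDOT1L against RAS and DOT1L OE against control. VEGFB is at 0.48 without and -0.09 with the offset and ANGPT1 at -0.75 and -0.10 in RAS against control, and all members stay left of 0 in RAS/shDOT1L against RAS.

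Counts over further gene lists are descriptions, to be read against all genes tested, of which the shares higher and lower were 31.9% and 32.0% in RAS against control, 26.3% and 26.4% in RAS/shDOT1L against RAS, 29.9% and 29.9% in DOT1L OE against control, and 27.9% and 27.6% in RAS/shDOT1L against control. The lists and their genes are given without the GC offset. Other genes of these families were few in these cells. Of 13 further VEGF, angiopoietin, angiopoietin-like and TIE receptor genes, 5 were tested in RAS against control, of which 2 were higher and none lower. In RAS/shDOT1L against RAS 4 of 4 tested were lower, in DOT1L OE against control 3 of 4 were higher, and in RAS/shDOT1L against control 2 of 4 were higher and 2 lower. Their median log2 changes were 0.50, -1.14, 0.83 and 1.16. ANGPT2, an angiopoietin that mostly blocks TEK, was at 30.5, 29.0 and 33.6 CPM in RAS, 14.16, 13.62 and 11.995 in RAS/shDOT1L, 2.40, 3.69 and 2.90 in DOT1L OE, and 2.12, 1.19 and 2.21 in control. It was higher in RAS than in control (4.06 on the log2 scale, SE 0.19, edgeR adjusted p = 6.7e-19) and lower in RAS/shDOT1L than in RAS (-1.21, SE 0.14, adjusted p = 5.5e-09). ANGPT1 was lower in RAS than in control (-0.75 on the log2 scale) but was not called with the GC offset (-0.10, edgeR adjusted p = 0.55). The change of ANGPT2 in DOT1L OE against control was 0.71 (SE 0.34, edgeR adjusted p = 0.069).

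TEK, the receptor of ANGPT1 and ANGPT2, stood at 62.3, 61.5 and 59.5 CPM in RAS, 26.2, 22.2 and 22.1 in RAS/shDOT1L, 136, 129.9 and 123 in DOT1L OE, and 63.3, 68.5 and 69.5 in control. Its ligand ANGPT1 was lowest where TEK was highest, in DOT1L OE. TEK was lower in RAS/shDOT1L than in RAS (-1.36 on the log2 scale, SE 0.10, edgeR adjusted p = 5.1e-13), higher in DOT1L OE than in control (0.95, SE 0.06, adjusted p = 1.1e-14), and at -0.14 in RAS against control (adjusted p = 0.11). TIE1, a receptor that modulates TEK, was at 15.0, 12.7 and 10.8 CPM in RAS, 4.57, 6.59 and 6.88 in RAS/shDOT1L, 3.41, 3.36 and 3.61 in DOT1L OE, and 0.258, 0.971 and 0 in control. It was higher than control in both RAS (4.98 on the log2 scale, SE 0.41, edgeR adjusted p = 1.8e-12) and DOT1L OE (3.09, SE 0.53, adjusted p = 7.1e-06), and lower in RAS/shDOT1L than in RAS (-1.08, SE 0.21, adjusted p = 7.5e-05). Against control TIE1 met the filter on low counts only through the other group, so it had to differ there.

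Class 3 semaphorins, which share the neuropilins with VEGF ligands, and the plexins that signal for them, moved in both directions. Of 10 tested in RAS against control 5 were higher and 5 lower (median log2 change 0.06). In RAS/shDOT1L against RAS 1 was higher and 5 lower of 9 (median -0.40), in DOT1L OE against control 3 were higher and 2 lower of 10 (median 0.02), and in RAS/shDOT1L against control 1 was higher and 7 lower of 10 (median -0.39). SEMA3F, a ligand of NRP2 that inhibits vessel growth, was at 196 ± 11.3 CPM in RAS, 47.8 ± 7.12 in RAS/shDOT1L, 138 ± 5.71 in DOT1L OE and 101 ± 1.42 in control (SD, n = 3). It was higher in RAS than in control (0.96 on the log2 scale, SE 0.06, edgeR adjusted p = 2.3e-16) and lower in RAS/shDOT1L than in RAS (-2.02, SE 0.08, adjusted p = 2.7e-20). PLXNA3 was at 163 ± 7.07 CPM in RAS and 86.8 ± 6.07 in RAS/shDOT1L, and PLXND1, the endothelial plexin, at 197 ± 8.68 CPM in RAS and 119.9 ± 5.57 in RAS/shDOT1L. Against 101 ± 7.78 and 113 ± 3.44 CPM in control, both were higher in RAS (edgeR adjusted p = 9.2e-12 and 1.8e-14).

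Genes that relay signals behind the VEGF receptors were for the most part above the filter on low counts, 24 of 27. Of 24 tested in RAS against control 12 were higher and 8 lower (median log2 change 0.22), and in RAS/shDOT1L against RAS 5 were higher and 11 lower of 24 (median -0.08). In DOT1L OE against control 8 were higher and 7 lower of 23 (median 0.02), and in RAS/shDOT1L against control 7 were higher and 5 lower of 24 (median -0.03). SPHK1, a lipid kinase of the pathway, was at 229.6 ± 8.77 CPM in RAS, 86.9 ± 1.15 in RAS/shDOT1L, 82.8 ± 7.01 in DOT1L OE and 29.0 ± 1.53 in control, with a log2 change of 2.99 in RAS against control (SE 0.06, edgeR adjusted p = 3.0e-28) and -1.38 in RAS/shDOT1L against RAS (adjusted p = 3.2e-19). PXN, a focal adhesion adaptor, was higher in RAS than in control (1.04 on the log2 scale, SE 0.05, edgeR adjusted p = 1.1e-19), and HSPB1, a small heat shock protein, was lower (-0.57, SE 0.03, adjusted p = 2.8e-17). SRC was lower in RAS/shDOT1L than in RAS (-0.96 on the log2 scale, SE 0.09, edgeR adjusted p = 2.3e-11). SH2D2A had 0 counts in control, and the median of the list was 0.22 also with it set at the bound that 3 counts over the group allow.

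Low oxygen is a known inducer of VEGFA and ANGPTL4, and all groups were grown in it. The part of low oxygen in the levels of VEGFA and ANGPTL4 was not tested. Of 22 hypoxia-inducible genes, 14 were higher and 6 lower in RAS against control (median log2 change 0.32), and 13 were higher and 7 lower in RAS/shDOT1L against RAS (median 0.20). DOT1L OE against control had 7 higher and 11 lower (median -0.18), and RAS/shDOT1L against control had 12 higher and 6 lower (median 0.42). The glycolytic enzymes ENO1 and ALDOA were higher in RAS than in control (log2 changes 0.77 and 0.66, SE 0.02 each, edgeR adjusted p = 6.1e-24 and 2.4e-22). PFKFB4, a regulator of glycolysis, was at 40.0 ± 4.44 CPM in RAS, 87.4 ± 3.51 in RAS/shDOT1L, 12.4 ± 1.06 in DOT1L OE and 11.1 ± 1.10 in control (SD, n = 3), and was higher in RAS/shDOT1L than in RAS (1.15 on the log2 scale, SE 0.09, edgeR adjusted p = 7.6e-13). LOX, a collagen crosslinker, was lower in RAS than in control (-1.94 on the log2 scale, SE 0.04, edgeR adjusted p = 5.1e-29) and higher in RAS/shDOT1L than in RAS (1.62, SE 0.05, adjusted p = 4.7e-24).

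Of 8 tested regulators of the hypoxia factors, 3 were higher and 2 lower in RAS against control (median log2 change 0.12), and 4 were higher and none lower in RAS/shDOT1L against RAS (median 0.26). In DOT1L OE against control 2 were higher and 3 lower (median -0.08), and in RAS/shDOT1L against control 4 were higher and 1 lower (median 0.42). HIF1A, the oxygen-regulated subunit, was at 177 ± 8.90 CPM in RAS and 325 ± 8.42 in RAS/shDOT1L (SD, n = 3), with a log2 change of 0.89 (SE 0.05, edgeR adjusted p = 1.6e-15). EPAS1, its paralog, was at 169 ± 10.2 CPM in RAS and 621 ± 18.3 in control, with a log2 change of -1.88 (SE 0.05, edgeR adjusted p = 6.6e-27). EGLN3, a prolyl hydroxylase that marks these factors for decay, was lower in RAS than in control (-1.97 on the log2 scale, SE 0.29, edgeR adjusted p = 5.6e-07), EGLN1, another, was higher in RAS/shDOT1L than in RAS (0.65, SE 0.08, adjusted p = 8.2e-09), and VHL, which completes the decay, was higher in RAS than in control (0.41, SE 0.10, adjusted p = 0.00040). HIF protein was not measured.

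PPAR receptors and their lipid targets, the other known input to ANGPTL4, gave 7 higher and 3 lower of 14 in RAS against control (median log2 change 0.25), and 5 higher and 6 lower of 13 in RAS/shDOT1L against RAS (median -0.20). DOT1L OE against control had 6 higher and 4 lower of 13 (median -0.10), and RAS/shDOT1L against control 5 higher and 3 lower of 13 (median 0.09). PPARD was at 131 ± 3.68 CPM in RAS, 71.5 ± 2.47 in RAS/shDOT1L, 90.2 ± 1.61 in DOT1L OE and 64.2 ± 4.35 in control, and was higher in RAS than in control (1.03 on the log2 scale, SE 0.07, edgeR adjusted p = 3.1e-15). PPARG, the fat cell receptor, was lower in RAS than in control (-2.33 on the log2 scale, SE 0.18, edgeR adjusted p = 5.1e-13). The fatty acid oxidation genes ACADVL and CPT1A fell in RAS/shDOT1L against RAS (log2 changes -0.86 and -2.03, edgeR adjusted p = 9.7e-15 and 7.7e-14), and ACADVL was higher in RAS than in control (0.88, SE 0.05, adjusted p = 3.4e-16).

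Secreted inhibitors of vessel growth were also split. Of 13 tested, 6 were higher and 4 lower in RAS against control (median log2 change 0.04), 3 higher and 8 lower in RAS/shDOT1L against RAS (median -0.49), 8 higher and 3 lower in DOT1L OE against control (median 0.43), and 4 higher and 7 lower in RAS/shDOT1L against control (median -0.27). TIMP3, an inhibitor of metalloproteinases that also blocks VEGFA binding to KDR, was at 177 ± 6.91 CPM in RAS, 733 ± 12.6 in RAS/shDOT1L, 129 ± 1.76 in DOT1L OE and 571 ± 8.27 in control (SD, n = 3). It was lower in RAS than in control (-1.69 on the log2 scale, SE 0.04, edgeR adjusted p = 2.3e-26) and higher in RAS/shDOT1L than in RAS (2.07, SE 0.05, adjusted p = 8.4e-27). ADAMTS1, a protease that binds VEGFA, was lower in RAS than in control (-1.27 on the log2 scale, SE 0.05, edgeR adjusted p = 2.7e-20). COL18A1, the source of endostatin, was lower in RAS/shDOT1L than in RAS (-1.64 on the log2 scale, SE 0.07, edgeR adjusted p = 1.7e-20).

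The protein-coding genes whose log2 CPM followed each of 4 members most closely over the 12 libraries are given as a description, among 8455 genes with a mean of at least 10 CPM. The libraries share group, depth and the GC trend, and many genes had a like pattern. Nearest to VEGFA were APBA2, ENTREP3 and TMEM222 (Pearson r 0.986, 0.983 and 0.982), and 123 genes had an r of at least 0.95. Nearest to VEGFC were GAK, HMGXB3 and ACVRL1 (r 0.995, 0.989 and 0.989, with 109 genes at 0.95 or more). Of these ACVRL1 is itself a receptor of vessel growth, at 264 CPM in RAS, 82.8 in RAS/shDOT1L, 114 in DOT1L OE and 51.0 in control. Nearest to ANGPTL4 were FLOT2, DAD1 and TNIP1 (r 0.996, 0.996 and 0.995, with 268 genes at 0.95 or more), and nearest to NRP1 was STK25 (r 0.954), the only gene at 0.95 or more, before NIN (0.943) and PLA2G15 (0.938).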

How the data were processed

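RNA was measured in 12 IMR90 libraries by poly(A)-selected, paired-end sequencing. The authors aligned reads to GRCh38 with STAR (2.6.1 in the submitters' processing notes) and deposited whole-number counts per gene, not normalized. The strand setting is not given in the sources used here. The test was that of edgeR 4.0.16 (R 4.3.3): filterByExpr, TMM scaling, quasi-likelihood F test, two-sided, 6 libraries per comparison, Benjamini-Hochberg adjustment over all genes tested. Changes over 1.5-fold used glmTreat. The SE is the absolute log2 change divided by the square root of the F statistic. Intervals are 1.96 SE to either side, a normal multiplier, and can be narrower than the F test allows. CPM used TMM factors over 12 libraries, and TPM used exon lengths of GENCODE, which matched 93.5% of IDs. The fits were tested on simulated data. Alternatives were DESeq2 1.42.0, limma 3.58.1 (voom), other scaling and filters, 1 fit over all groups, a GC offset in 20 bins, a replicate block and leaving out each library. The canonical-transcript length was added after seeing the data. All members were named, and of each other list up to 3 genes with the smallest p in RAS against control and 2 in RAS/shDOT1L against RAS. Members and lists were chosen with earlier results of these data known.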

Additional observations from a re-analysis of the deposited data

How the results depend on the processing

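Of 59 member results, direction and call stayed the same in 57 with DESeq2 size factors, 52 with library size only, 56 with no filter, 57 with the DESeq2 Wald test, 58 with limma-voom, 57 with 1 fit over all 4 groups, 51 with the GC offset and in 328 of 354 fits without a library. The cause was not tested. Directions turned for VEGFB in RAS against control (-0.0872 with the GC offset, -0.0867 with it and the replicate block), NRP1 in RAS/shDOT1L against control (0.00083 with DESeq2 size factors, 0.0793 with the GC offset, 0.0787 with it and the block, -0.0595 to 0.0209 without a library), PGF in RAS against DOT1L OE (-0.21, and -0.20 with the block), FLT1 in RAS/shDOT1L against DOT1L OE (-0.16 with library size only, -0.0069 with no filter, -0.28 to 0.39 without a library) and VEGFA in DOT1L OE against control (-0.21 to 0.0136 without a library). Members over 1.5-fold in RAS/shDOT1L against RAS numbered 1 with the GC offset, with or without the block, against 2. Members called without a library ranged from 7 to 9 in RAS against control and 5 to 7 in RAS/shDOT1L against RAS, where library size only gave 5. The VEGFA share of ligand TPM was 4.93% in RAS over the longest transcript, and 14.8%, 16.0%, 17.0% and 13.7% in RAS, RAS/shDOT1L, DOT1L OE and control over the canonical one.

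With library size only, the median log2 change over all genes was -0.24 in RAS against control, -0.13 in RAS/shDOT1L against control, -0.31 in RAS against DOT1L OE and -0.18 in RAS/shDOT1L against DOT1L OE, and 36.9%, 40.0%, 32.1% and 38.2% of calls were higher, against 49.9%, 50.3%, 49.3% and 49.8% with TMM. Correlations of deviations between libraries with the same replicate number were low, at -0.019 to 0.0422. Yet 8 of 12 libraries correlated best with their own number, so a weak pairing by number stays possible. With the replicate block 8, 7, 8, 7, 9 and 8 members were called in RAS against control, RAS/shDOT1L against RAS, DOT1L OE against control, RAS/shDOT1L against control, RAS against DOT1L OE and RAS/shDOT1L against DOT1L OE. NRP1 left the calls in RAS against control (0.24, edgeR adjusted p = 0.0504) and FLT1 joined those in RAS against DOT1L OE (0.88, adjusted p = 0.0497). Counts of 0 to 21 a library limit KDR and PGF in control.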
